A study of Mus musculus with 10 samples.

Results

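This report describes the differentially methylated regions (DMRs) between stromal cells (SCs) of mesenteric and peripheral lymph nodes at 3 mouse loci where they lay over or next to a coding exon: Mab21l1, Gm14205 and Nxpe3. All DMRs with one of these 3 names as the nearest gene were taken from the authors' 4 tables of DMRs, which gave 8 of 2132 DMRs. Where DMRs of different tables overlapped by at least 1 base they were joined, so that the 8 DMRs formed 5 of 1602 regions and held 301 of 24182 distinct CpGs. The names are those of the nearest transcription start site (TSS) and not of the gene underneath. The Gm14205 DMRs lay in Slc32a1 and the Nxpe3 DMRs in Cep97, whereas the Mab21l1 DMRs lay in Mab21l1 itself. The 3 loci were chosen by their location difference and rank in these tables, so that difference is a description here. P-values for it are given only at the 2 regions that a single table listed, from tests in the housing that had not given them. Those 2 regions came in with the Gm14205 locus, which both housings had served to choose, so the tests are not independent of that choice.

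Methylation had been measured by whole-genome bisulfite sequencing, which reports at each CpG the share of reads that keep a methylated cytosine, in non-endothelial SCs (CD45-CD31-Ter119-Pdpn+ by the sort) of adult BALB/c mice. The 10 libraries comprised 3 of gut-draining mesenteric lymph nodes (mLNs) and 3 of skin-draining peripheral lymph nodes (pLNs) from specific pathogen-free (SPF) mice, and 2 of mLNs and 2 of pLNs from germ-free (GF) mice. The GF mice had been derived by caesarean section at a different institution from the SPF mice and kept in isolators. The paper also gives different, overlapping age ranges for them, with the GF range the younger. Housing, colony, facility and any difference in age therefore cannot be told apart. The methods name 1 mLN GF and 1 pLN GF replicate left out as outliers, which were not analysed here. In the tissue label the pLN libraries are called skin-draining but also mesenteric, and their titles, which say pLN, were followed. Neither the labels nor the methods say how many mice went into a library, so p-values measure the spread between these libraries, and the mix of SC subsets behind each library cannot be read from DNA methylation at these loci.

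Methylation of the cytosine in a CpG is laid down by the DNMT3 enzymes and copied to the new strand by DNMT1 when cells divide, so that a pattern can be kept through cell division. CpG-rich stretches around promoters are usually unmethylated, whereas coding exons away from promoters are usually methylated. Mab21l1 is a single-exon gene of the Mab21 family that is needed for eye development, and it lies inside the larger gene Nbea on the other strand, an annotated exon of which overlaps its start. Slc32a1 encodes the vesicular transporter that loads GABA and glycine into synaptic vesicles, and Gm14205 is a long non-coding RNA gene on the opposite strand around its first exon. Cep97 encodes a centriolar protein that, with CP110, caps the mother centriole and holds back cilium formation, and Nxpe3 is a neighbouring gene of the neurexophilin and PC-esterase domain family.

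In the GRCm38 annotation the Mab21l1 region ran over chr3:55782557-55784740 and the Mab21l1 exon over chr3:55782510-55785001, with the coding sequence at chr3:55782994-55784070. The first Gm14205 region, chr2:158612068-158614382, reached from the intron of Slc32a1 into its exon 2 (chr2:158613817-158615748), although its SPF DMR ended within the intron. The second, chr2:158614551-158614873, lay wholly in the coding sequence of that exon, and the third, chr2:158614984-158615766, lay almost wholly in its 3′ UTR. Gaps of 168 and 110 bases separated the 3 regions, which together spanned 3699 bases. The Nxpe3 region, chr16:55904814-55906399, covered the end of the last Cep97 intron, all 699 coding bases of exon 11 and the start of the 3′ UTR. Its DMRs were 9534 and 9637 bases from the nearest TSS, that of Nxpe3.

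The following 150-base windows are those with the most CpGs within the coding sequence of each gene, shown so that the density of CpGs in these exons can be read directly. They are the reference (C57BL/6J) sequence of GRCm38 on the strand of the gene, with each CpG in capitals. The windows are Mab21l1 chr3:55783810-55783959 on the plus strand with 11 CpGs, Slc32a1 chr2:158613888-158614037 on the plus strand with 17 CpGs and Cep97 chr16:55905665-55905814 on the minus strand with 12 CpGs.
Mab21l1: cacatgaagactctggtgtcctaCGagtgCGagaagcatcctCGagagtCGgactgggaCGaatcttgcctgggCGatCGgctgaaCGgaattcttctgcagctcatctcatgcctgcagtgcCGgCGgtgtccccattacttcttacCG
Slc32a1: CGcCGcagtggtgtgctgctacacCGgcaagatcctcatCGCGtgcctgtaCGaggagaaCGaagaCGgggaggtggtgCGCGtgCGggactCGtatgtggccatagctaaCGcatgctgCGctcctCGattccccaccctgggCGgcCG
Cep97: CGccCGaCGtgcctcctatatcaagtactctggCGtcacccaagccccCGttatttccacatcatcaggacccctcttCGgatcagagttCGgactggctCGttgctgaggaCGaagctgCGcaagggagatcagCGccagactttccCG

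**Figure D1:**
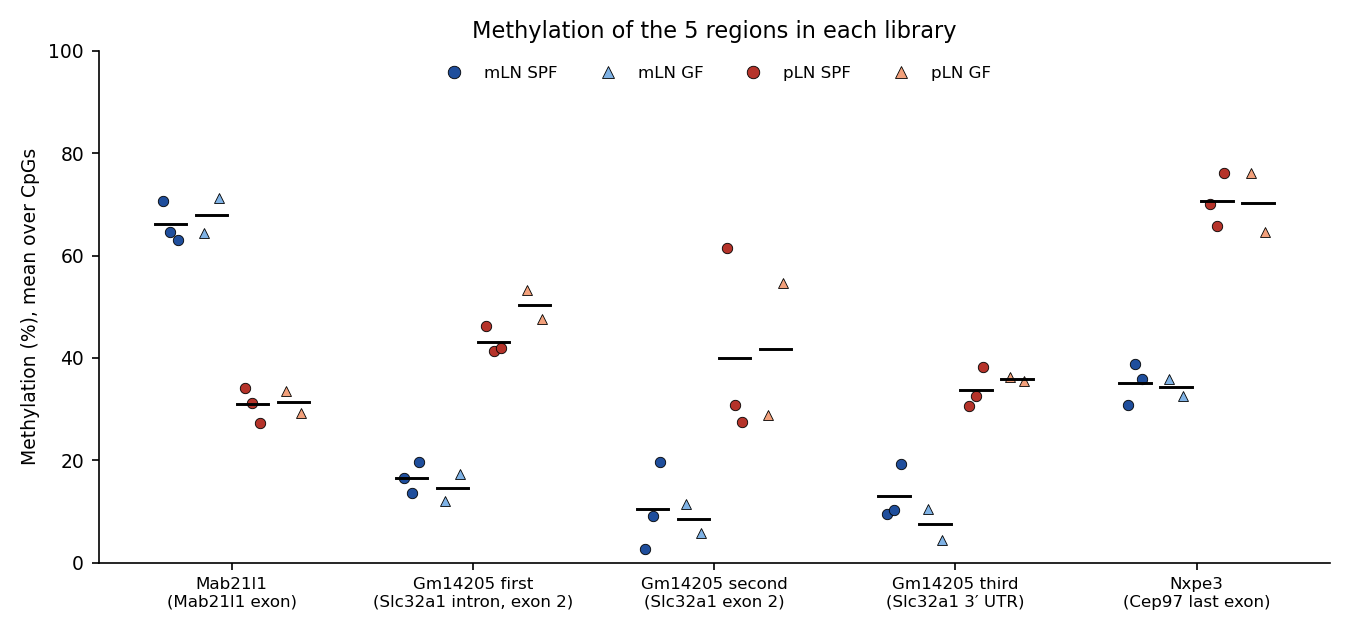
Methylation of the 5 regions, as the mean over their CpGs in percent (vertical axis), in each of the 10 libraries (circles SPF, triangles GF, blue mLN, red and orange pLN; black lines are group means). The 5 mLN libraries lie above the 5 pLN libraries at Mab21l1, with a gap of 28.7 points, and below them at the other 4 regions, with the smallest gap, 7.87 points, at the second Gm14205 region.

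Mab21l1 was the locus that was more methylated in mLN SCs. Over the 86 CpGs of the region, methylation was 70.7%, 64.7% and 63.0% in the 3 mLN SPF libraries and 64.5% and 71.3% in the 2 mLN GF libraries. It was 34.2%, 31.3% and 27.4% in the 3 pLN SPF libraries and 33.6% and 29.3% in the 2 pLN GF libraries. The mLN libraries did not overlap with the pLN libraries over the region as a whole. For SPF mice the means were 66.1% ± 4.07 (SD, n = 3) for mLN and 31.0% ± 3.44 (SD, n = 3) for pLN. For GF mice they were 67.9% ± 4.83 (SD, n = 2) for mLN and 31.5% ± 3.09 (SD, n = 2) for pLN. By areaStat, the authors' score that sums the evidence over the CpGs of a DMR, the SPF DMR ranked 6 of 806 and the GF DMR 26 of 1293.

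**Figure D2:**
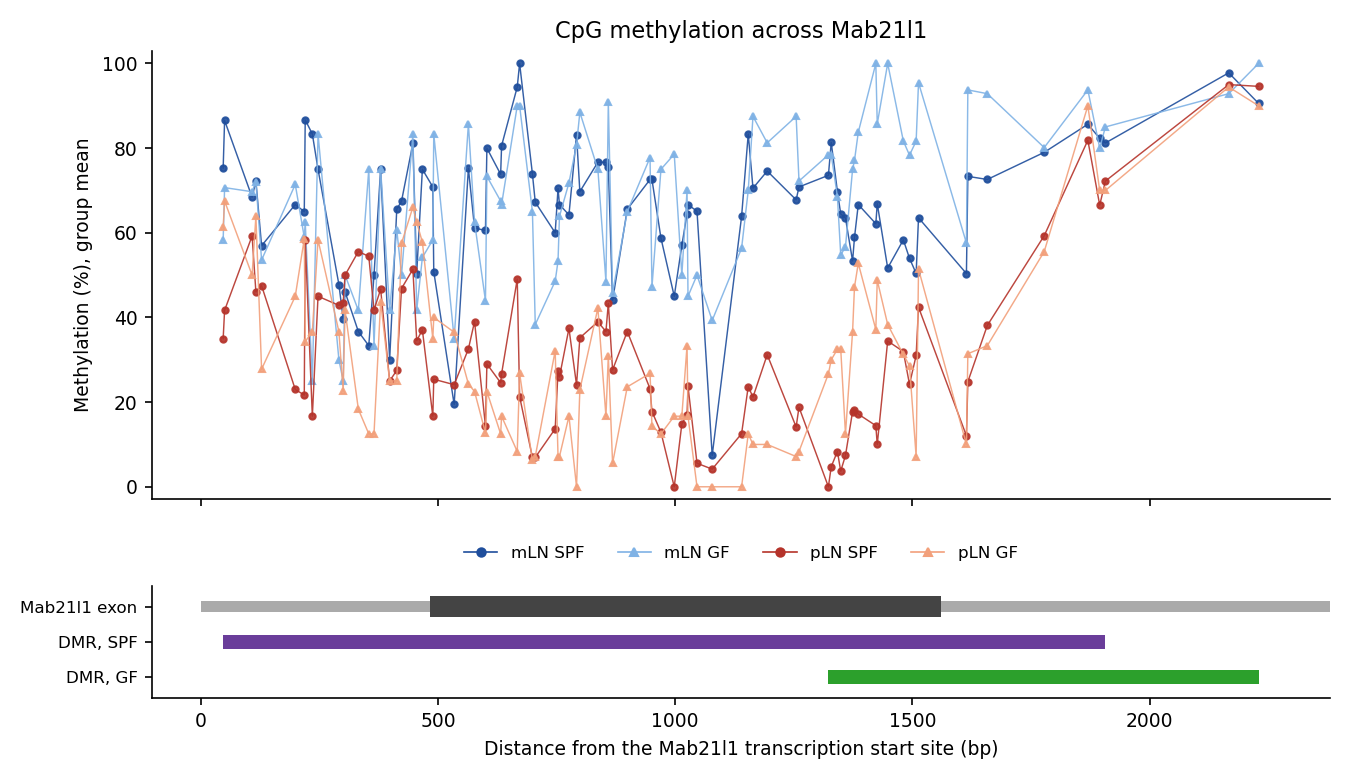
Methylation of each CpG of the Mab21l1 region (vertical axis, group mean in percent) against the distance from the Mab21l1 TSS in bases (horizontal axis), with the exon (dark, coding; light, UTR) and the DMRs of the SPF and GF tables below. The mLN and pLN lines part over the coding sequence and meet again at the last CpGs of the 3′ UTR, where both are above 90%.

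The Mab21l1 difference was unevenly spread along the exon, as the plot of its CpGs shows. Over the 54 coding CpGs SPF mice had 65.6% ± 5.63 (SD, n = 3) for mLN but 21.7% ± 6.53 (SD, n = 3) for pLN. GF mice had 69.9% ± 1.83 (SD, n = 2) for mLN but 21.8% ± 1.77 (SD, n = 2) for pLN. The 23 CpGs of the 5′ UTR differed by 21.1 points in SPF mice and 13.1 points in GF mice, and the 9 CpGs of the 3′ UTR by 18.7 and 25.7 points. In the 5′ UTR the mLN GF libraries were far apart, at 38.4% and 73.6%, and the lower one lay among the pLN libraries, which ranged from 37.3% to 48.4%. Of the 54 coding CpGs, 28 kept all 5 mLN libraries above all 5 pLN libraries, against 1 of 22 in the 5′ UTR and 3 of 9 in the 3′ UTR, beside 33.5% of all location CpGs.

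Single CpGs of Mab21l1 covered almost the whole range of methylation. The CpGs of largest and smallest difference, here and at the other loci, were picked as extremes. The read depth behind each fraction is unknown, so values of single CpGs are imprecise. Averaged over SPF and GF with equal weight, the difference ran from -3.09 to 71.0 points, was in the direction of the region at 82 of 86 CpGs, and was 50 points or more at 24. The largest was at the coding CpG chr3:55783182, 672 bases from the TSS, where the group means were 100.0% in mLN SPF, 90.0% in mLN GF, 21.3% in pLN SPF and 26.8% in pLN GF. The smallest lay only a short way upstream, at chr3:55783044, with 19.4%, 35.0%, 24.1% and 36.5% in the same order. At chr3:55783833, the first CpG of the GF DMR and part of the printed Mab21l1 window, all 3 pLN SPF libraries were listed at 0.0%, against 75.0%, 85.7% and 60.0% in mLN SPF. In the GF libraries the same CpG read 75.0% and 81.8% in mLN and 33.3% and 20.0% in pLN.

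The tables drew different borders at Mab21l1, but the difference did not begin where the GF table put its start. The SPF DMR began 47 bases from the TSS and was 1861 bases long, whereas the GF DMR began 1323 bases from the TSS, late in the coding sequence, and was 908 bases long. The 39 coding CpGs that the GF table left out were at 70.0% and 62.2% in the 2 mLN GF libraries and at 21.0% and 12.9% in the 2 pLN GF libraries. That difference of 49.2 points was no smaller than the 45.5 points over the 15 coding CpGs that both tables covered. At the 2 CpGs that belonged to the GF DMR alone, at the far end of the 3′ UTR, the mean of both was 90.0% or more in every library. Over the 15 shared coding CpGs, a stretch picked out after its values were seen and not tested by itself, SPF minus GF was -17.1 points in mLN and -16.5 points in pLN, with mLN still above pLN in both housings. Over the GF DMR as a whole mLN was at 68.8% in SPF and 82.1% in GF mice and pLN at 33.8% and 44.1%, whereas over the whole region these gaps were -1.76 and -0.494 points.

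At Slc32a1, under the 3 Gm14205 regions, the direction was the opposite, with lower methylation in mLN SCs. The first region had 93 CpGs and stood at 16.6%, 13.6% and 19.6% in the mLN SPF libraries and at 12.0% and 17.3% in the mLN GF libraries. In the pLN SPF libraries it stood at 46.2%, 41.4% and 41.9%, and in the pLN GF libraries at 53.3% and 47.6%. All 5 mLN libraries therefore lay below all 5 pLN libraries, by at least 21.8 points. The GF DMR of this region ranked 2 of 1293 by areaStat and the SPF DMR 139 of 806. Averaged over SPF and GF, which had both served to call DMRs here, 90 of the 93 CpGs were lower in mLN, 66 of them by 25 points or more. At 7 CpGs all 5 mLN libraries were listed at 0.

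The second region, of 29 CpGs in 323 bases, was much less even between replicates. It was at 2.68%, 9.13% and 19.7% in mLN SPF and at 11.4% and 5.77% in mLN GF, against 61.5%, 30.9% and 27.5% in pLN SPF and 28.8% and 54.6% in pLN GF. One pLN library of each housing thus stood far above its replicates. The pooled SD between replicates was 14.1 points, higher than in 97.3% of all regions (median 5.81 points). Of the 29 CpGs, 1 separated all mLN from all pLN libraries, beside 33.5% of all location CpGs. Averaged over SPF and GF all 29 CpGs were lower in mLN, but this average includes the SPF libraries that had called the DMR. In the GF libraries alone chr2:158614632 was at 0.0% in both lymph nodes.

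The third region, of 41 CpGs, was low in mLN and intermediate in pLN. The mLN SPF libraries gave 9.47%, 10.2% and 19.2% and the mLN GF libraries 10.6% and 4.49%. The pLN SPF libraries gave 30.6%, 32.5% and 38.3% and the pLN GF libraries 36.2% and 35.5%. It was the member with the smallest differences, 20.9 points in SPF and 28.4 points in GF libraries, and no CpG of it differed by 50 points or more. Averaged over SPF and GF every one of the 41 CpGs was lower in mLN, but this average includes the GF libraries that had called the DMR. In the SPF libraries alone chr2:158615519 was at 21.9% in mLN and 20.3% in pLN. Over the region as a whole the lymph nodes did not overlap.

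**Figure D3:**
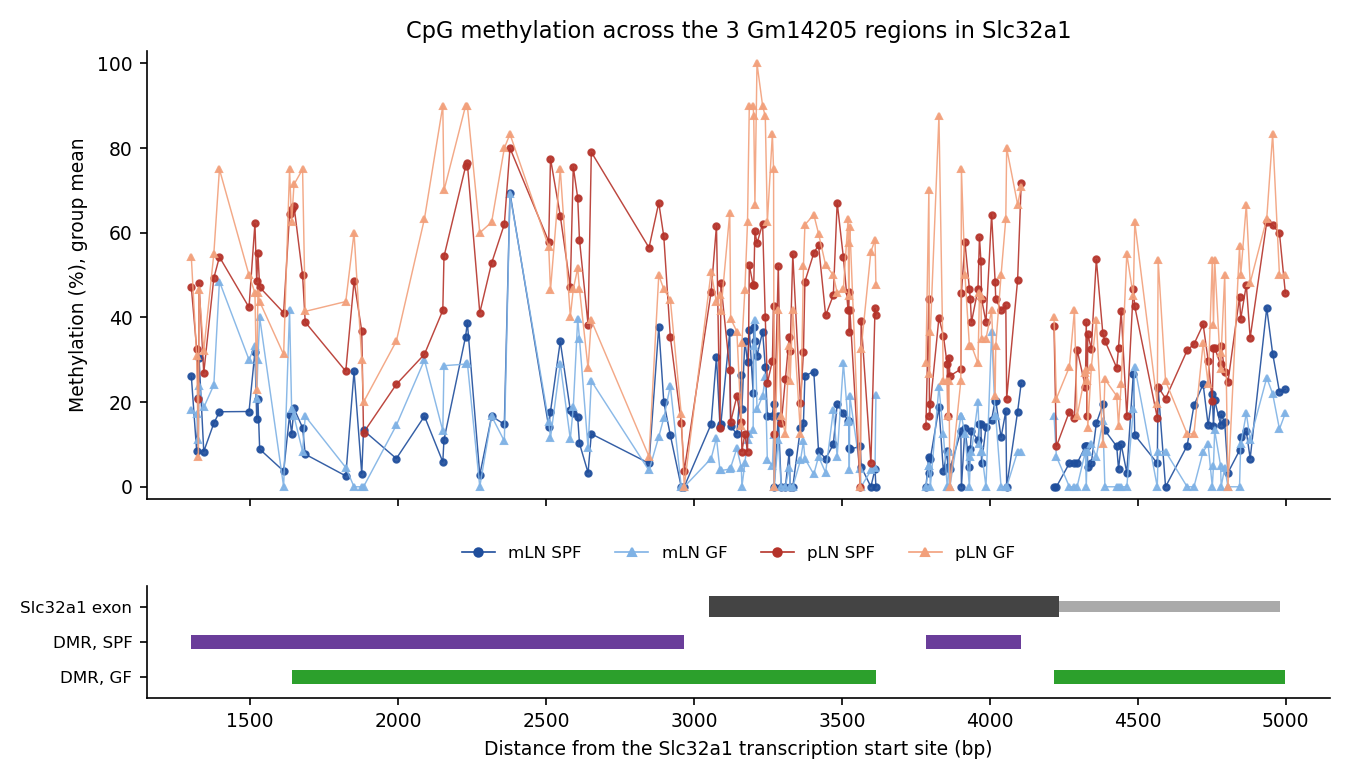
Methylation of each CpG of the 3 Gm14205 regions (vertical axis, group mean in percent) against the distance from the Slc32a1 TSS in bases (horizontal axis), with Slc32a1 exon 2 (dark, coding; light, UTR) and the DMRs of the SPF and GF tables below. The blue mLN lines stay mostly under 40% from the intron to the end of the exon and mostly under the red and orange pLN lines, which they cross at some CpGs, several of them near the start of the coding exon; breaks in the lines are the gaps between regions, for which no CpG was analysed.

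Within Slc32a1 the intron and the start of the coding exon differed in how the tables treated them. For the 47 intronic CpGs of the first region SPF mice had 16.6% ± 2.32 (SD, n = 3) for mLN but 49.6% ± 6.93 (SD, n = 3) for pLN. GF mice had 19.4% ± 2.93 (SD, n = 2) for mLN but 49.8% ± 5.85 (SD, n = 2) for pLN. The 46 coding CpGs that followed belonged to the GF DMR alone. In the GF libraries they were at 6.54% and 13.0% in mLN and at 52.6% and 49.6% in pLN, a difference of 41.3 points. In the SPF libraries, which that DMR had not used, they were at 13.9%, 12.3% and 23.6% in mLN and at 35.8%, 40.2% and 33.8% in pLN, a difference of 20.0 points without overlap. The pLN libraries of the 2 housings did not overlap over these coding CpGs either, at 33.8% to 40.2% in SPF and 49.6% to 52.6% in GF. This stretch was picked out after its values were seen and was not tested by itself.

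The printed Slc32a1 window, with 17 CpGs, is a part of these coding CpGs and was also further apart in GF than in SPF libraries. Only the GF libraries had called a DMR here, so a larger difference in them is favoured by the call. It was at 7.42% and 19.2% in the mLN GF libraries and at 72.0% and 61.1% in the pLN GF libraries. In SPF mice it was at 17.2%, 13.0% and 49.7% in mLN and at 35.6%, 38.9% and 26.6% in pLN, so that mLN SPF replicate 3 lay above every pLN SPF library. The printed window at Mab21l1 was at 57.3% to 85.2% in the 5 mLN libraries and at 4.55% to 42.1% in the 5 pLN libraries. That at Cep97 was at 12.0% to 27.2% in mLN and 49.9% to 92.4% in pLN. Apart from the SPF libraries at Slc32a1, these CpG-dense windows kept the lymph nodes apart.

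The largest single CpG difference in Slc32a1 was intronic, at chr2:158613126, 2359 bases from the Slc32a1 TSS. Its group means were 14.8% in mLN SPF, 10.8% in mLN GF, 62.0% in pLN SPF and 80.0% in pLN GF. In the coding exon the largest was at chr2:158614873, the last CpG of the second region, with 24.4%, 8.33%, 71.7% and 70.8% in the same order. At the last CpG before the exon, chr2:158613734, the group means were between 0.0% and 3.70%, so that there was little methylation in either lymph node.

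The Nxpe3 region in Cep97 was also less methylated in mLN SCs, and the group means of SPF and GF mice were closest to each other here. Over its 52 CpGs methylation was 30.9%, 38.8% and 35.8% in the mLN SPF libraries and 35.9% and 32.7% in the mLN GF libraries. It was 70.1%, 65.8% and 76.1% in the pLN SPF libraries and 76.1% and 64.5% in the pLN GF libraries. All mLN libraries lay at least 25.7 points below all pLN libraries, and the difference was 35.5 points in SPF and 36.1 points in GF mice. The SPF DMR ranked 11 of 806 and the GF DMR 6 of 1293 by areaStat, and the borders of the DMRs differed by 3 CpGs.

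**Figure D4:**
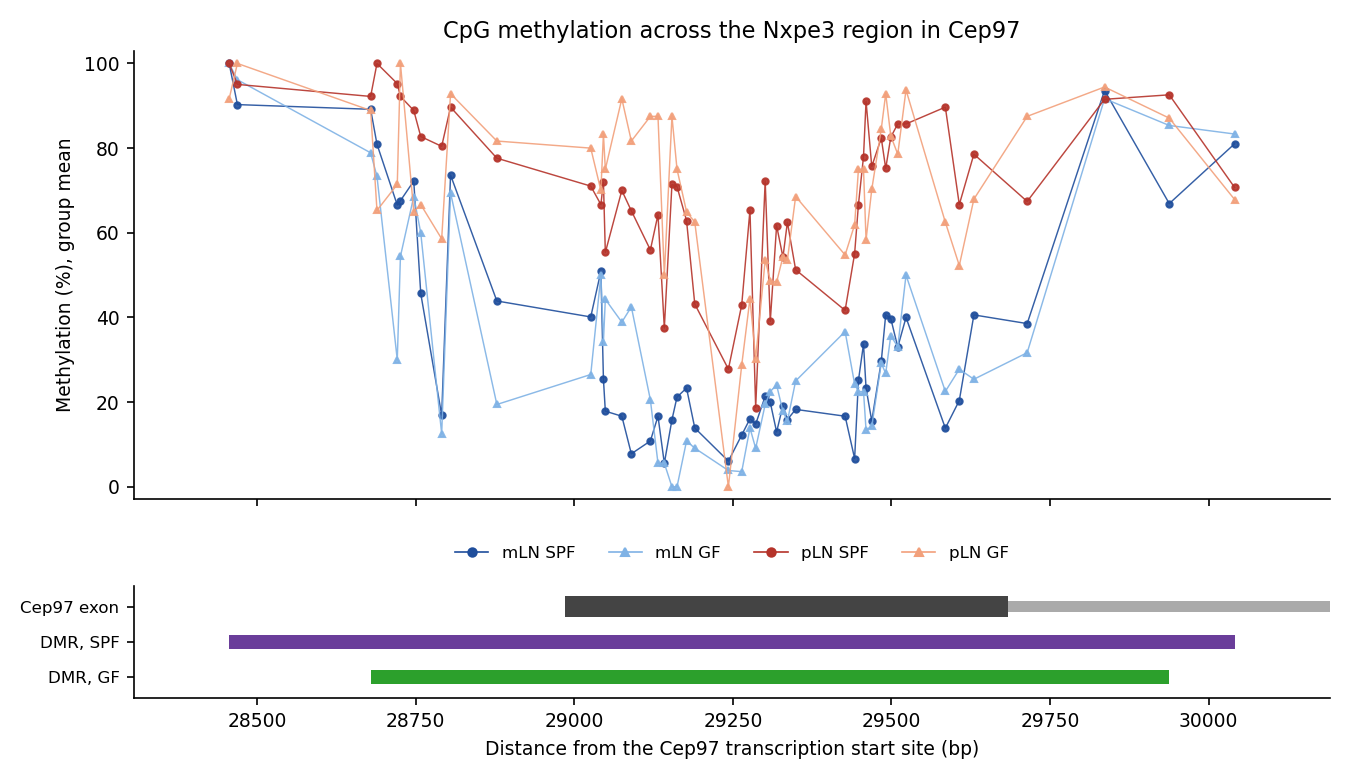
Methylation of each CpG of the Nxpe3 region (vertical axis, group mean in percent) against the distance from the Cep97 TSS in bases (horizontal axis), with the last Cep97 exon (dark, coding; light, UTR) and the DMRs of the SPF and GF tables below. All groups are high at both ends, and the mLN lines fall to a trough over the coding sequence, where the pLN lines stay mostly above 40%.

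The Cep97 difference had the shape of a trough centred on the coding part of the exon. Only CpGs within the DMRs were analysed, so this shape depends on the borders that the calls set. The 37 coding CpGs were at 15.8%, 26.7% and 22.5% in mLN SPF and at 22.1% and 22.6% in mLN GF, against 62.5%, 57.5% and 71.0% in pLN SPF and 72.3% and 59.5% in pLN GF. In the preceding intron (11 CpGs) the difference was 22.5 points in SPF and 19.9 points in GF mice, and in the 4 CpGs of the 3′ UTR it was 10.5 and 11.2 points. Of the 37 coding CpGs, 25 kept all 5 mLN below all 5 pLN libraries, against 1 of 11 in the intron and 1 of 4 in the 3′ UTR. The share over all location CpGs was 33.5%, and these counts include the libraries that had served to call the DMRs. The largest difference, 71.6 points, was at the coding CpG chr16:55905701, which lies in the printed Cep97 window, with 15.8% in mLN SPF, 0.0% in mLN GF, 71.4% in pLN SPF and 87.5% in pLN GF. At the intronic border of the region, chr16:55906399, the group means were between 91.7% and 100.0%.

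**Figure D5:**
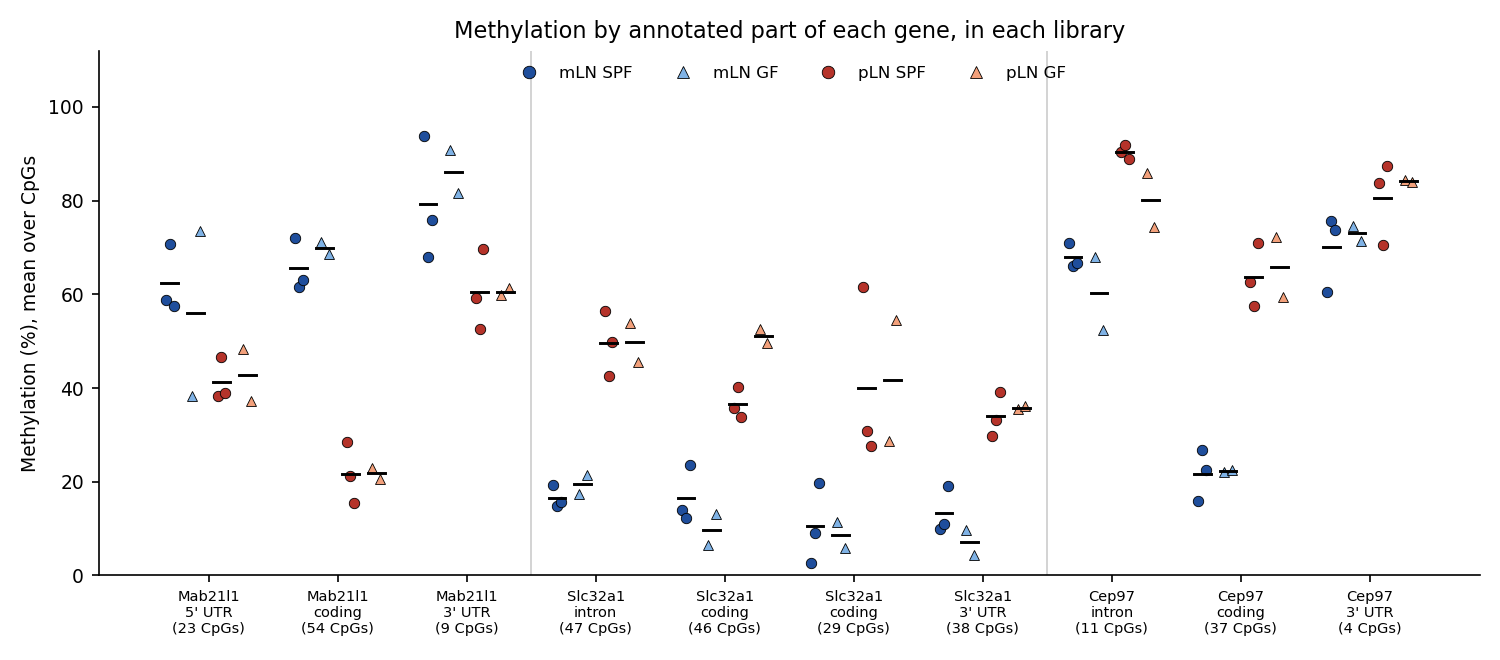
Methylation by annotated part of Mab21l1, Slc32a1 and Cep97 (mean over the CpGs of each part in percent, vertical axis) in each of the 10 libraries; circles SPF, triangles GF, blue mLN, red and orange pLN, black lines group means. The coding parts of Mab21l1 and Cep97 show the widest separation, 43.9 and 42.0 points in SPF mice, and in Slc32a1 the lymph nodes are apart in intron, coding sequence and 3′ UTR.

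Set side by side, the coding parts of Mab21l1 and Cep97 had nearly mirrored levels. In SPF mice the coding CpGs were at 65.6% in mLN and 21.7% in pLN for Mab21l1, and at 21.7% in mLN and 63.7% in pLN for Cep97. In both genes, within the borders set by the DMR calls, the difference fell off towards the neighbouring UTR or intron. In Slc32a1 the order depended on the housing. In SPF mice the difference was 33.0 points in the intron, 23.7 points over all 77 coding CpGs and 20.7 points in the 3′ UTR, and in GF mice it was 30.3, 37.6 and 28.8 points. All the intronic CpGs lay in an SPF DMR, whereas 46 of the coding CpGs and the 3′ UTR lay in GF DMRs alone. The order is therefore not independent of which housing had called each part. These parts share libraries and neighbouring CpGs share reads, so the comparison is a description without a test.

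Each DMR was next measured in the housing that had not been used to call it. For the SPF DMRs, mLN minus pLN in the GF libraries was 37.2 points at Mab21l1, -30.3 and -33.1 points at the first and second Gm14205 regions and -36.1 points at Nxpe3. For the GF DMRs, it was in the SPF libraries 35.0 points at Mab21l1, -26.2 and -20.9 points at the first Gm14205 region and the third one and -37.8 points at Nxpe3. The directions were the same as in the calling housing at all 8 DMRs. Mab21l1, the first Gm14205 region and Nxpe3 were listed in both tables, however, so that both sets of libraries had served to choose them, and for these 6 DMRs the values are a description only.

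The second Gm14205 region and the third one were each listed in 1 table and were tested in the other housing, which had not called them. That housing had, however, called a DMR close by, 168 bases from the second region and 110 bases from the third. Both housings had thus served to choose the locus, and the p-values below are not independent of that choice. At the second region the difference in the GF libraries was -33.1 points (SE 8.66), with an adjusted p of 0.0113 by limma with Benjamini-Hochberg adjustment over the 806 DMRs of the SPF table. Such calls were the rule, since 89.0% of the DMRs of that table passed in the GF libraries in the direction of the table. The call was lost without mLN GF replicate 2 (adjusted p = 0.0717 by limma), and without pLN GF replicate 2 the difference shrank to -20.2 points. At the third region the difference in the SPF libraries was -20.9 points (SE 4.77), with an adjusted p of 0.00232 by limma over the 1293 DMRs of the GF table, of which 82.4% passed in the SPF libraries. The two-sided exact permutation test gave 0.333 at the second region and 0.1 at the third, in each case the smallest p that 2 against 2 and 3 against 3 libraries allow.

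CpG by CpG the members fell on both sides of the background, again as a description. Of the CpGs of the SPF-called DMRs, the GF libraries of mLN and pLN did not overlap at 55 of 84 for Mab21l1, 30 of 47 and 15 of 29 for the first and second Gm14205 regions and 40 of 52 for Nxpe3, beside 64.7% of all CpGs of that table. Of the CpGs of the GF-called DMRs, the SPF libraries did not overlap at 14 of 24 for Mab21l1, 36 of 79 and 10 of 41 for the first Gm14205 region and the third one and 37 of 49 for Nxpe3, beside 48.6%. Nxpe3 was above the share of its table both times, at 76.9% and 75.5%, Mab21l1 was at 65.5% and 58.3%, and the third Gm14205 region was well below at 24.4%. Over all 10 libraries, 32 of 85 CpGs of Mab21l1, 25 of 93, 1 of 29 and 3 of 41 CpGs of the Gm14205 regions and 27 of 52 CpGs of Nxpe3 separated the lymph nodes, beside 33.5% of all location CpGs. As whole regions all 5 did so, as did 79.9% of all location regions.

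Over the 5 regions as wholes no housing difference passed when mLN and pLN were fitted together. None of the 8 DMRs came from the tables of SPF against GF mice, which held 17 DMRs in mLN and 16 in pLN. In limma fits with location and housing as terms, SPF minus GF was -1.13 points (95% CI -7.74 to 5.49) at Mab21l1 and 0.611 points (95% CI -6.78 to 8.01) at Nxpe3. At the 3 Gm14205 regions it was -2.67 points (95% CI -9.55 to 4.22), 0.0947 points (95% CI -14.9 to 15.1) and 1.71 points (95% CI -5.53 to 8.94). The Benjamini-Hochberg adjusted p over 1602 regions by limma was between 0.991 and 0.997 for the 5 regions, and 0.0% of all regions passed, with 72 regions at an unadjusted p under 0.05. The intervals leave room for housing differences of several points, and of up to 15.1 points at the second Gm14205 region.

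The location difference did not pass a test of being different between SPF and GF mice at any member. This test compares the SPF and GF location differences by which the members had been chosen. Regions listed in both location tables had been chosen for differing in both housings. Those listed in a single table had been called in the housing of that table alone. The p-values and intervals are therefore not independent of the choice, and cannot show that the location difference was alike in both housings. The interaction term of limma, the SPF location difference minus the GF one, was -1.27 points (SE 6.22) at Mab21l1, 9.21 (SE 5.88), 3.61 (SE 14.3) and 7.50 (SE 6.46) at the 3 Gm14205 regions and 0.588 (SE 6.99) at Nxpe3. The adjusted p was between 0.655 and 0.983 for these regions by limma over 1602 regions, of which 0.0% passed and 141 had an unadjusted p under 0.05. The first Gm14205 region had the widest housing contrast within pLN, with 43.1% ± 2.63 (SD, n = 3) for SPF but 50.4% ± 4.01 (SD, n = 2) for GF libraries. That difference of -7.27 points gave p = 0.2 in a two-sided exact permutation test, which cannot go below 0.1 with 3 against 2 libraries. The pLN libraries did not overlap there, at 41.4% to 46.2% in SPF and 47.6% to 53.3% in GF mice. Within mLN the difference was 1.94 points, so the housing term averages differences of opposite sign. The interval of the interaction at this region, -3.71 to 22.1 points, includes both no difference and a sizeable one.

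The 5 regions were rich in CpGs for DMRs of this series, which is not independent of their choice, since areaStat grows with the number of CpGs in a DMR. They held 3.94 CpGs per 100 bases at Mab21l1, 4.02, 8.98 and 5.24 at the 3 Gm14205 regions and 3.28 at Nxpe3, against a median of 2.11 over the 1602 regions. The ratio of observed to expected CpGs was between 0.570 and 0.849, against a median of 0.409. GC content was 65.6% at the second Gm14205 region, higher than in 99.3% of all regions, but 46.1% at Nxpe3, close to the median of 46.3%. Mab21l1 and the first Gm14205 region were 2184 and 2315 bases wide, wider than 97.8% and 98.7% of the regions. Coding bases made up 49.3% of the Mab21l1 region, 24.5%, 100.0% and 2.30% of the Gm14205 regions and 44.1% of the Nxpe3 region, whereas 9.11% of all regions touched a coding exon at all and 2.52% of all their bases were coding. The overlap with coding exons was part of the choice of the members and is given for scale.

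Some DMR regions elsewhere in the genome had similar profiles over the 10 libraries. Likeness was measured as the mean absolute difference between 2 profiles, each centred on its own mean, and all profiles share the same libraries. Closest to Mab21l1 was a region nearest to 4930579D09Rik (2.23 points), followed by regions nearest to Gm22181 and Speer2, against a median of 19.0 points over all regions. The first Gm14205 region was closest to Dnajc1 (2.07 points), Irx2 and Gm23763, and the third to Got1 (2.01 points), Ndufb2 and Gm23163. The second Gm14205 region had no match as close, with Lmx1b (5.67 points), Pax1 and Shox2 first. Nxpe3 was closest to Tacc3 (2.64 points), Tbx5 and Gm22867.

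Among related genes, the close relative of Mab21l1 also carried a location DMR. Of 6 genes of the Mab21 family, Mab21l1 and Mab21l2 were nearest to DMRs, Mab21l2 to 3 of them. These formed 1 region at chr3:86549583-86551344, 1299 bases from the Mab21l2 TSS at its nearest point and inside an intron of Lrba. It held no coding base, so the family members differed in which part of the locus was affected. Over its 41 CpGs methylation was 77.9%, 72.9% and 75.3% in mLN SPF and 77.1% and 78.6% in mLN GF, against 50.3%, 46.4% and 51.3% in pLN SPF and 46.8% and 49.0% in pLN GF. As at Mab21l1 the mLN libraries were all higher, here by 26.0 points in SPF and 30.0 points in GF mice.

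By nearest gene name the other lists held no DMR apart from the members themselves. None of 11 genes of inhibitory and vesicular transmission, among them Slc32a1, Gad1 and Gad2, was the nearest gene of a DMR. The same held for 8 genes of centriole capping and cilium formation, Cep97 included, because the tables assign DMRs to the nearest TSS, and Nxpe3 was the 1 of 5 Nxpe family genes with DMRs. None of 12 neighbouring genes, such as Nbea and Actr5, was the nearest gene of a DMR, although the Mab21l1 region lies within Nbea. These counts go by the nearest TSS, so they cannot show that a listed gene holds no DMR. No further DMR lay within 100 kb of any of the 5 regions.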

How the data were processed

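The authors checked and trimmed paired-end bisulfite reads with FastQC (0.11.1), trim_galore and cutadapt (1.4), aligned them to GRCm38 with BSMAP (2.4.3) and kept unique, properly paired, de-duplicated reads. CpGs were restricted by coverage, smoothed with bsseq and searched for DMRs in 4 comparisons. The deposited tables give the areaStat score, used here only for ranks, and the authors' group means and differences, which were not used. A further deposited table gives the unsmoothed methylated fraction of each library at every CpG in a DMR; the depth behind each fraction is unknown here, so no counting interval is given, and short regions are the least precise.

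Fractions were turned into percent and averaged over the CpGs with a value in every group. At all 8 member DMRs the authors had counted fewer CpGs than were averaged here. The counts ran from 51 against 52 at the SPF Nxpe3 DMR to 49 against 79 at the GF DMR of the first Gm14205 region. The areaStat ranks rest on the authors' CpGs. Between 99.6% and 99.9% of CpGs had a value in each library, and the mean level ranged from 48.3% to 52.3%. Replicates shared identical values at 11.4% to 14.2% of CpGs, so all were kept as separate samples. All 24182 positions read CG in GRCm38. Differences are mLN minus pLN or SPF minus GF. DMRs were fitted with limma (3.58.1, R 4.3.3) on percent, Benjamini-Hochberg over each whole table, and called at an adjusted p under 0.05; DMRs of the SPF table were fitted in GF libraries and those of the GF table in SPF libraries, and p-values are given only for the member DMRs listed in 1 table. Housing and interaction were fitted on the 1602 merged regions. The limma scripts were tested on simulated data. Genes came from GENCODE vM21, sequence from the RefSeq copy of GRCm38.

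The members, gene lists and tests were chosen with earlier results of these data known. All member DMRs were described, with the CpGs of the largest and smallest difference and the first and last CpG of a DMR; the 3 regions most like each member and the DMRs of 5 fixed gene lists were named. Alternatives were another scale, a CpG minimum, CpGs with a value in all 10 libraries, each library left out and, for housing only, the replicate number as a block. For the location differences the median over CpGs and trimmed edges were also used. Protein sequences were not used here.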

Additional observations from a re-analysis of the deposited data

How the results depend on the processing

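All 8 member DMRs kept their location direction under every alternative reported for them, which did not include the replicate block. By limma in the other housing 8 passed under the arcsine scale, the CpG minimum and the CpGs complete in all 10 libraries, and 7 to 8 with 1 library left out. Of all SPF-called and GF-called DMRs, 711 of 806 and 1058 of 1293 passed under the arcsine scale. With the CpG minimum 665 of 709 and 914 of 1018 passed, and with complete CpGs 717 of 806 and 1066 of 1293. With 1 library left out 669 to 692 and 1003 to 1049 passed. Of the 8 member DMRs, 6 lie in regions listed in both tables, so their count is largely fixed by the choice of the loci and supports nothing. The mean difference over the 4 SPF-called DMRs in GF libraries was 34.2 points in the direction of the table; it was 40.5 points with the median over CpGs and 36.2 points with the outermost CpGs at each end left out. For the 4 GF-called DMRs in SPF libraries the 30.0 points became 35.4 points with the median over CpGs. These moves exceeded the spread between replicates and made the differences larger. The counts of CpGs without overlap stayed within 1.5 times.

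Housing and interaction were called at 0 of 5 members under the arcsine scale, the CpG minimum, the complete CpGs and each library left out. The same held for housing with the replicate block, which is not reported for the interaction. The interaction calls are not independent of the choice of the members by their location differences. The uncalled housing and interaction differences changed sign at some regions. With the replicate block the housing difference was 0.560 points at Mab21l1, -0.976 at the third Gm14205 region and -0.903 at Nxpe3, and on the arcsine scale it was -0.000534 at the second Gm14205 region. With one library left out housing ranged from -2.30 to 0.332 points at Mab21l1, -4.64 to 5.48 at the second and -0.325 to 2.77 at the third Gm14205 region and -1.56 to 2.91 at Nxpe3; the interaction ranged from -4.68 to 2.15 at Mab21l1, -9.31 to 16.5 at the second Gm14205 region and -5.22 to 6.39 at Nxpe3. Deviations of same-numbered mLN and pLN libraries correlated at -0.0371 to 0.0322 over 1602 regions, and the replicate block called 0 regions for housing. With 2 GF libraries per group the deviations mirror each other, so the GF correlations can differ in sign only. Whether same-numbered libraries came from the same mice is not known here, and these correlations cannot exclude it. Read depth per CpG was not available to any test here, and groups of 2 libraries give wide intervals.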
